A study of Mus musculus with 2 samples.

Results

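The Kruppel-like factors described here are 10 mouse genes, Klf2, Klf3, Klf4, Klf5, Klf6, Klf7, Klf9, Klf10, Klf13 and Klf15. They were chosen by symbol from 44713 genes in a count table of RNA labelled as pancreatic islet. All 10 had a mean level of at least 1 CPM (counts scaled to library size, here with TMM factors, which trim extreme genes before they are set) and were compared between 2 libraries, 1 per group. The db/db library was made from islets of C57BL/6 mice labelled Lepr-/-, which lack a working leptin receptor, become obese and develop diabetes. The db/m library was made from islets of C57BL/6 mice labelled wild type, although the name db/m is commonly used for heterozygous carriers of the mutation. Age, sex and the number of animals per library are not given in the labels. The series describes triplicates, and 1 library per group was analysed here. Replicate error is therefore unknown and no p-value could be computed. The 95% interval given with each ratio of db/db over db/m covers counting error only, so below "db/db islets" and "db/m islets" stand for these single libraries and not for the genotypes. In both libraries, although labelled islet, most counts came from 37 genes of the enzyme-making acinar cells (75.4% in db/db and 77% in db/m). The levels below are therefore those of mixed pancreatic RNA and not of islet cells alone.

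Kruppel-like factors are transcription factors that bind GC-rich and CACCC sequences through zinc fingers at the C-terminal end of the protein, a part they share with the Sp factors. Outside the zinc fingers the members differ, and some activate while others repress transcription. Several are early-response genes, whose transcripts rise soon after cells meet growth factors, shear stress, injury or tissue handling, while others answer to hormones such as glucocorticoids or have a steadier level. On the ground of that general knowledge, though with earlier results of these data known, Klf2, Klf4, Klf6 and Klf10 were taken as the 4 early-response members and Klf3, Klf5, Klf7, Klf9, Klf13 and Klf15 as the 6 other members.

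The upstream sequences of 3 early-response members and of Klf15 are shown because the first 3 were lower together in db/db islets while Klf15 was not. Each is the 250 bases before the start given in the RefSeq promoter table for GRCm38.p6, written 5′ to 3′ on the gene's own strand, at chr8:72318812-72319061 (plus strand) for Klf2, chr13:5861239-5861488 (plus strand) for Klf6, chr4:55532476-55532725 (minus strand) for Klf4 and chr6:90462326-90462575 (plus strand) for Klf15. The start given for Klf15 lies inside the annotated span of the gene, as does that for Klf7, whose window was searched but is not shown. Capitals mark the half-site of the cyclic AMP response element (TGACG, or CGTCA on the other strand) and the binding site of MEF2, a factor that acts on early-response genes downstream of the kinase ERK5.
Klf2: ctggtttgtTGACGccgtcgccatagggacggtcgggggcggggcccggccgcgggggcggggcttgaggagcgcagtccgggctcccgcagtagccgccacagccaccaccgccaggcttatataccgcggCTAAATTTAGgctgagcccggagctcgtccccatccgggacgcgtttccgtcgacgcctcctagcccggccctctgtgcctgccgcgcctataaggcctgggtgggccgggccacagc
Klf6: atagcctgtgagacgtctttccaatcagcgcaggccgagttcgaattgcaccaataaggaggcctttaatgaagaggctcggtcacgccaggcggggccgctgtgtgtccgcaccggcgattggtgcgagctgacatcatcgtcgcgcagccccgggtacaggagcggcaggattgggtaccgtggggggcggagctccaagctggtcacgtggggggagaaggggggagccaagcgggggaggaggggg
Klf4: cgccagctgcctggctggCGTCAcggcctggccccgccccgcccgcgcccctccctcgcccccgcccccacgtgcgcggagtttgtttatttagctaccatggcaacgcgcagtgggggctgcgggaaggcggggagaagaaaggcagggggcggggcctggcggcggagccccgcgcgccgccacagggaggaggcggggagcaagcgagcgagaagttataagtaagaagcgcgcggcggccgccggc
Klf15: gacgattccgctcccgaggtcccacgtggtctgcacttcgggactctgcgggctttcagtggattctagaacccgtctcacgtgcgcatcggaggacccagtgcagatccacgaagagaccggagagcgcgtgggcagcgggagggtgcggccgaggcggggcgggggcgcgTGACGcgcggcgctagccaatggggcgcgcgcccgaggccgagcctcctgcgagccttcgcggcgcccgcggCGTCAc

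RefSeq promoter entries were matched for 8 of the 10 members, Klf5 and Klf10 being the others. A MEF2 site was found in Klf2, 118 to 109 bases before the start, and in none of the other 7, against 2.92% of 32851 mouse promoter windows of the same length. The CRE half-site was found in 2 of 3 early-response members (Klf2 and Klf4) and in 3 of 5 other members (Klf9, Klf13 and Klf15), against 17.8% of all windows. The GC box GGGCGG, a sequence that the family itself binds, was found in 3 of 3 early-response and 4 of 5 other members, against 32.7% of windows. CCACCC, the core of the CACCC box, was found in 1 of 3 and 3 of 5, against 28.1%, and CCAAT in 1 of 3 and 3 of 5, against 33.8%. No member window held the CArG box bound by serum response factor, which 1.47% of windows hold, or the heat shock element core GAANNTTC, which 6.69% hold. Both strands were searched, and a GC box and a CACCC box overlapped once, in Klf13. The share of G and C ranged between 59.2% (Klf7) and 78.4% (Klf3) over the 8 member windows, beside a median of 52.4% over all windows. A match describes letters in this window and is no evidence that a factor binds there.

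The largest differences were those of 3 early-response members. Klf2, Klf6 and Klf4 were reduced more than 2-fold in db/db islets, Klf10 was lower by less than 2-fold, and no member was at least 2-fold higher. A call required a 2-fold or larger ratio, a mean of at least 1 CPM before TMM scaling and an interval that left out 1. By this rule 3 of 4 early-response members and 1 of 6 other members (Klf5) were called lower, against 4.04% of 10300 compared genes, and 0 of 10 members were called higher, against 3.83%. The median log2 ratio was -2.36 over the early-response members and 0.07 over the other members, beside 0.02 over all compared genes. Without a limit on the fold, the interval lay below 1 for 6 of 10 members (the 4 early-response members, Klf3 and Klf5), against 18.2% of compared genes, and included 1 for Klf7, Klf9 and Klf13.

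Klf2, a factor that flow induces in endothelial cells and that keeps T cells quiescent (chromosome 8, 72319062 to 72321654), had 15 counts in db/db islets and 224 in db/m islets. Its level was 0.774 CPM in db/db islets (counting interval 0.433 to 1.28) and 14.6 CPM in db/m islets (12.8 to 16.7). The 2 intervals did not overlap, and the level was 18.9-fold lower in db/db islets (11.2 to 34.3), the largest difference among the members. Only 16 of the 10300 compared genes (0.155%) had a lower ratio than Klf2.

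Klf6, an early gene of tissue injury and growth stimulation that many cell types express (chromosome 13, 5861489 to 5870393), had 306 counts in db/db islets and 2107 in db/m islets. The level was 15.8 CPM in db/db islets (14.1 to 17.7) and 138 CPM in db/m islets (132 to 144), an 8.71-fold lower level in db/db islets (7.72 to 9.85). It has the narrowest interval of the lower members because it rests on the most counts. There were 32 compared genes (0.311%) with a lower ratio.

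Klf4, a factor of epithelial differentiation and one of the factors that reprogram cells to pluripotency (chromosome 4, 55527137 to 55532475), had 45 counts in db/db islets and 107 in db/m islets. The level was 2.32 CPM in db/db islets (1.69 to 3.11) and 6.99 CPM in db/m islets (5.73 to 8.44), 3.01-fold lower in db/db islets (2.1 to 4.36). In Klf4, as in Klf2 and Klf6, the intervals of the libraries did not overlap, and 130 compared genes (1.26%) had a lower ratio.

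Klf10, first known as an early gene induced by TGF-beta (chromosome 15, 38291464 to 38300711), had 157 counts in db/db islets and 213 in db/m islets. The level was 8.1 CPM in db/db islets (6.88 to 9.48) and 13.9 CPM in db/m islets (12.1 to 15.9). The level was 1.72-fold lower in db/db islets (1.39 to 2.12), so the interval excluded 1 but the 2-fold limit was not reached. Of the 4 early-response members it was the nearest to the rest of the family.

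**Figure D1:**
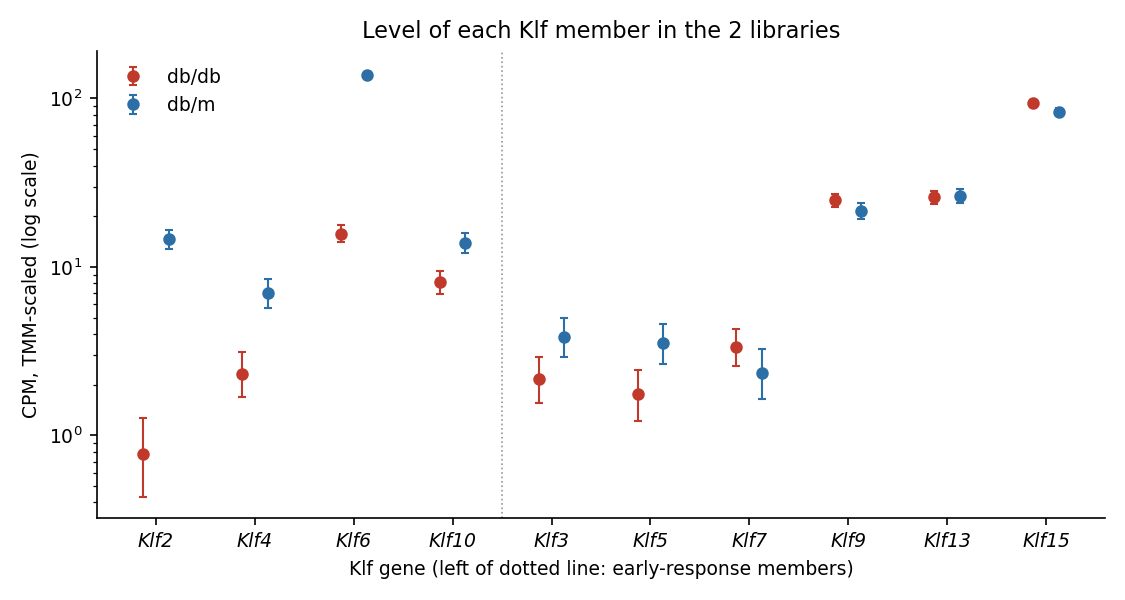
Level of each of the 10 Klf members in db/db islets (red) and db/m islets (blue), as CPM on a log axis. Points are single libraries and bars are 95% Poisson counting intervals, which overlap for Klf7, Klf9 and Klf13 and are apart for the other members, most widely for Klf2 and Klf6.

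Among the other members, the glucocorticoid-responsive pair differed little. Klf9, which glucocorticoids and thyroid hormone induce in several tissues (chromosome 19, 23141226 to 23168129), had 481 counts in db/db islets and 330 in db/m islets. Its level was 24.8 CPM in db/db islets and 21.6 CPM in db/m islets, a ratio of 1.15 (0.999 to 1.33) with an interval that just includes 1. A microRNA gene, Mir1192, lies within Klf9. Klf15, a regulator of amino acid breakdown in muscle and liver and of glucose production in the liver (chromosome 6, 90461043 to 90491803), had 1818 counts in db/db islets and 1278 in db/m islets. The level was 93.8 CPM in db/db islets and 83.5 CPM in db/m islets, a ratio of 1.12 (1.05 to 1.21). That was the single member whose interval lay above 1, as it did for 20.7% of compared genes.

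Klf13, known for its part in the late activation of T cells (chromosome 7, 63886351 to 63938915), had 504 counts in db/db islets and 404 in db/m islets, or 26 CPM in db/db islets and 26.4 CPM in db/m islets. The ratio of 0.986 (0.863 to 1.13) was the nearest to 1 among the members, and its log2 value of -0.02 became 0.15 with total counts and 0.06 with total counts without acinar and hormone genes. Klf7, a factor of axon outgrowth in developing neurons (chromosome 1, 64029448 to 64122345), had 65 counts in db/db islets and 36 in db/m islets. The level was 3.35 CPM in db/db islets and 2.35 CPM in db/m islets, a ratio of 1.43 (0.936 to 2.21), so at this depth a difference could not be detected. With total counts in place of TMM the intervals of both Klf9 (1.3, 1.13 to 1.5) and Klf7 (1.61, 1.06 to 2.49) lay above 1. With total counts without acinar and hormone genes that of Klf9 did too (1.215, 1.05 to 1.4), while that of Klf7 included 1 (1.5, 0.986 to 2.33).

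Klf3 and Klf5 lay on either side of the 2-fold limit. Klf5, which drives the growth of intestinal crypt epithelium (chromosome 14, 99298691 to 99313412), had 34 counts in db/db islets and 54 in db/m islets. The level was 1.75 CPM in db/db islets (1.21 to 2.45) and 3.53 CPM in db/m islets (2.65 to 4.6). The ratio of 0.498 (0.314 to 0.778) was just past the limit, and the call was lost with total counts and with total counts without acinar and hormone genes, where the log2 ratio was -0.83 and -0.93. Klf3, a repressor that works through the corepressor CtBP (chromosome 5, 64803521 to 64832901), had 42 counts in db/db islets and 59 in db/m islets. The level was 2.17 CPM in db/db islets and 3.85 CPM in db/m islets, a ratio of 0.563 (0.369 to 0.85), short of the limit with an interval below 1. Klf5 is also induced by serum in some cells, and with it among the early-response members their median log2 ratio would be -1.59.

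**Figure D2:**
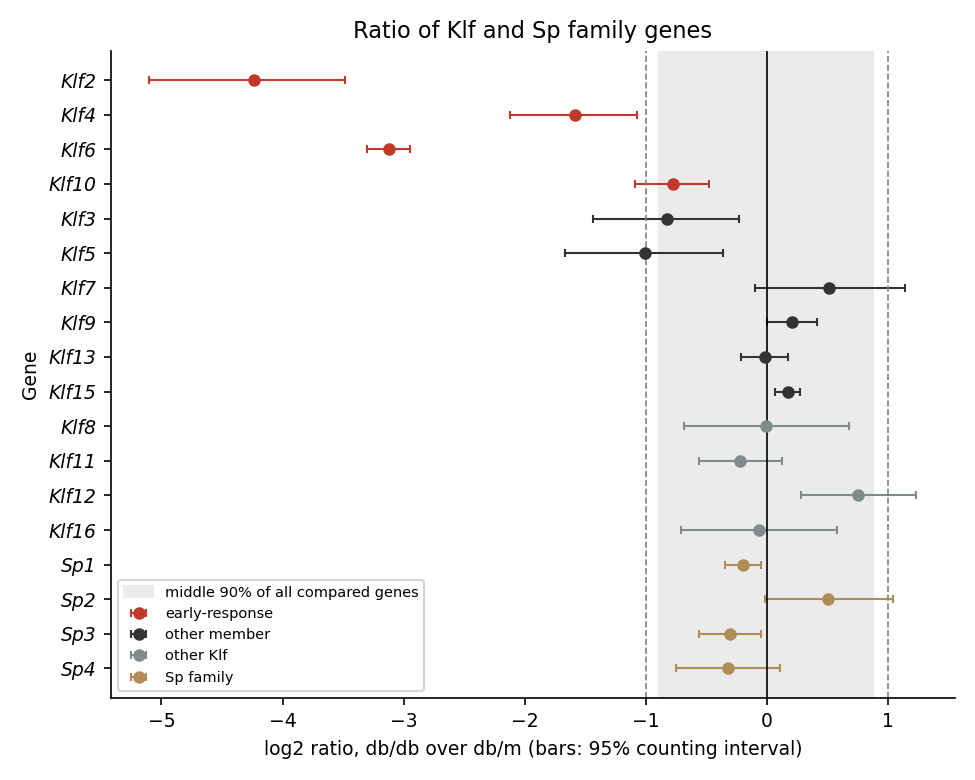
log2 ratio of db/db over db/m for the Klf members and the other measured Klf and Sp genes, with 95% counting intervals. Dashed lines mark 2-fold and the grey band holds the middle 90% of all compared genes (-0.90 to 0.87). Klf2, Klf6, Klf4 and, at its edge, Klf5 lie below the band, and no gene of either family lies above it.

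The scaling of the libraries was then taken out by setting members against each other within each library. Counts of different genes also depend on transcript length, so these shares are compared between libraries and not between genes. The 4 early-response members took 15.1% of the 3467 counts of the 10 members in db/db islets (95% exact binomial interval 13.9% to 16.3%) and 55.1% of the 4812 counts in db/m islets (53.7% to 56.5%). Klf6 alone fell to 8.83% in db/db islets (7.9% to 9.82%), against 43.8% in db/m islets (42.4% to 45.2%). Klf15 took 52.4% in db/db islets (50.8% to 54.1%) and 26.6% in db/m islets (25.3% to 27.8%). Klf2 took 0.433% in db/db islets and 4.66% in db/m islets. The larger share of Klf15 in db/db islets stands beside a ratio of 1.12 for its level.

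**Figure D3:**
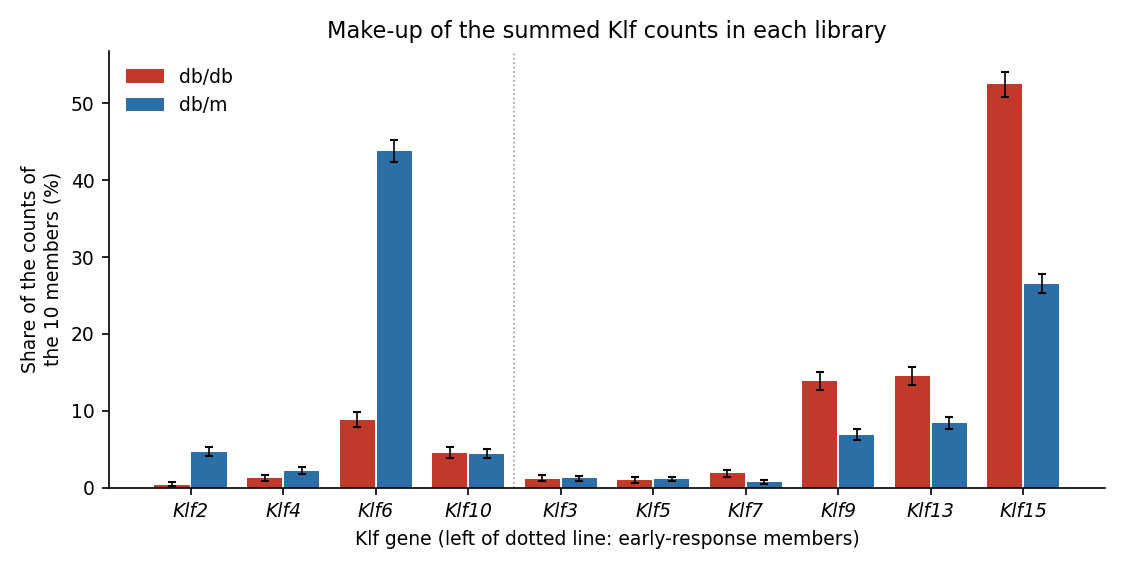
Share of the summed counts of the 10 members held by each member, in percent, in db/db islets (red) and db/m islets (blue), with 95% exact binomial intervals. Klf6 holds 8.83% in db/db islets and 43.8% in db/m islets, and Klf15 52.4% in db/db islets and 26.6% in db/m islets.

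The summed early-response counts, set against the summed counts of the other members, were 6.91-fold lower in db/db islets (exact conditional interval 6.18 to 7.71). Klf6 and Klf15 carry most of these sums. Without Klf6 on one side and Klf15 on the other, a step added after their counts were seen, the difference was 3.2-fold (2.66 to 3.85). All 45 pairs of members were compared in the same way, with intervals widened to hold over the 45 pairs. Of 24 pairs of an early-response and an other member, 20 had an interval that excluded 1, each with the early-response member lower in db/db islets. The 4 exceptions were Klf4 and Klf10, each against Klf3 and Klf5, so every such pair with Klf2 or Klf6 was among the 20. Pairs that share a gene are not independent, and the sets were chosen with earlier results known. The share of such intervals among pairs of all compared genes was not computed. Against Klf15, Klf2 was 21.2-fold lower (9.38 to 60.1), Klf6 9.79-fold (7.77 to 12.4), Klf4 3.38-fold (1.88 to 6.37) and Klf10 1.93-fold (1.34 to 2.8).

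The early-response members also differed among themselves. Klf2 was lower relative to Klf4 by 6.28-fold in db/db islets (2.22 to 20.4) and relative to Klf10 by 11-fold (4.5 to 32.6). Klf6 was lower relative to Klf10 by 5.08-fold (3.38 to 7.59). Relative to Klf6, Klf2 was at 0.461 (0.161 to 1.06), an interval that includes 1, so the order of these 2 was not settled by their counts. Of the 15 pairs within the other members 5 had an interval that excluded 1, with Klf3 lower relative to Klf9 and Klf15, and Klf5 lower relative to Klf7, Klf9 and Klf15. The intervals between Klf9, Klf13 and Klf15 included 1, with Klf9 at 1.03 relative to Klf15 (0.787 to 1.34) and Klf13 at 0.877 (0.683 to 1.13).

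The rest of the family had no call, as was so for most compared genes. The table holds 7 other Klf genes, of which Klf8, Klf11, Klf12 and Klf16 reached 1 CPM. Of these 0 were called in either direction, against 7.87% of all compared genes. Klf12, a repressor, had the highest ratio of these, with 119 counts in db/db islets, 56 in db/m islets and a ratio of 1.68 (1.21 to 2.35). Klf11, a close relative of Klf10 that can bind the insulin promoter, had 151 counts in db/db islets, 139 in db/m islets and a ratio of 0.859 (0.677 to 1.09). Klf8 had a ratio of 0.994 (0.623 to 1.6) and Klf16 of 0.952 (0.61 to 1.49). Klf1, Klf14 and Klf17 had 0 counts in both libraries, which allows up to 0.155 CPM in db/db islets and 0.196 CPM in db/m islets when a floor of 3 counts is used.

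Of 9 Sp genes, 4 reached 1 CPM and 0 were called, against 7.87% of all compared genes. Sp1, a widely expressed activator that binds GC boxes, stood at 40.5 CPM in db/db islets and 46.6 CPM in db/m islets, a ratio of 0.869 (0.784 to 0.963). Sp3 had a ratio of 0.809 (0.677 to 0.967), Sp4 of 0.799 (0.594 to 1.07) and Sp2 of 1.42 (0.99 to 2.06). Sp5, Sp7, Sp8 and Sp9 had 0 counts in both libraries, and Sp6 had 2 in db/db islets and 0 in db/m islets.

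**Figure D4:**
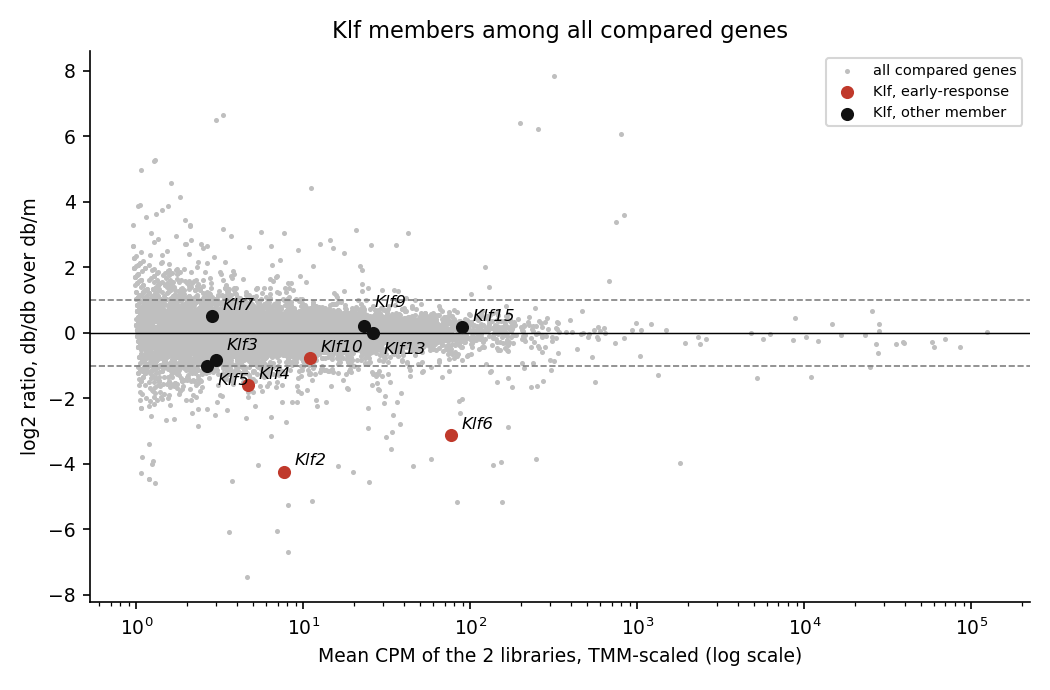
log2 ratio of db/db over db/m against the mean CPM of the 2 libraries (log axis) for all 10300 compared genes (grey), with the early-response Klf members in red and the other members in black. Dashed lines mark 2-fold. Klf2 (-4.24) and Klf6 (-3.12) lie below the main cloud, and Klf9, Klf13 and Klf15 lie inside the main cloud.

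The lower early-response members stood beside other immediate early genes. In a list of 25 such genes 20 were compared, of which 15 were called lower and 0 higher (4.04% and 3.83% of all compared genes were called lower and higher, the background for this and the following lists), with a median log2 ratio of -1.94. The list had Atf3 with the lowest ratio, at 2.01 CPM in db/db islets and 47.2 CPM in db/m islets. When Klf2 was placed in the order of these 20 genes by ratio, 2 were lower (Atf3 and Fosb) and 18 higher. For Klf6, 5 were lower (these and Egr1, Jun and Fos) and 15 higher, the nearest of them Btg2, an antiproliferative gene with a ratio of 0.181, while for Klf4 13 were lower and 7 higher, and for Klf10 16 were lower and 4 higher. All 20 immediate early genes had a lower ratio than Klf7, Klf9, Klf13 and Klf15.

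Among genes known to act upstream of early-response members calls were few, as they were over all compared genes (7.87% called in either direction). The kinase ERK5 and the MEF2 factors it activates raise Klf2 and Klf4 transcription in endothelial cells, and of their 6 compared genes 0 were called, with a median log2 ratio of -0.02. Mef2d, the most abundant of them, was at 88.3 CPM in db/db islets and 80.3 CPM in db/m islets. Serum response factor and its partners switch on many immediate early genes. Of these 6 genes 1 was called lower, Elk3, with 34 counts in db/db islets and 61 in db/m islets (ratio 0.44, 0.281 to 0.681), and the median was -0.44. The interval lay below 1 for 3 of the 6 and above 1 for 0, with Srf itself at 0.573 (0.481 to 0.681) and its coactivator Mkl1 at 0.618 (0.435 to 0.875), a pair picked for mention once the values were known. Elk4, the most abundant of them, had a ratio of 1.12 (0.963 to 1.29). Of 8 compared genes of TGF-beta signalling, which induces Klf10, 0 were called, with a median of 0.18. Smad4, which pairs with the other signalling SMADs, had a ratio of 1.26 (1.14 to 1.38).

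Genes linked to the glucocorticoid-responsive members did not share one direction. In a list of glucocorticoid-response genes 11 were compared, of which 1 was called higher and 2 lower, with a median of -0.42. Zbtb16, a zinc finger gene induced by the hormone, was at 35.2 CPM in db/db islets and 13.8 CPM in db/m islets, a ratio of 2.56 (2.19 to 3). Cebpd had 11 counts in db/db islets and 35 in db/m islets, and Ddit4, an inhibitor of mTOR, had 81 in db/db islets and 153 in db/m islets. The metal-binding metallothionein gene Mt1, the most abundant of the list, was within the limit at 0.75 (0.718 to 0.782). Of 9 compared genes of amino acid catabolism, a process that KLF15 promotes in liver and muscle, 1 was called higher and 0 lower, with a median of 0.23. Gpt2, the mitochondrial alanine aminotransferase, was at 61.8 CPM in db/db islets and 30.7 CPM in db/m islets, a ratio of 2.02 (1.81 to 2.25). Bcat2, which starts the breakdown of branched-chain amino acids, had a ratio of 1.08.

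Genes whose proteins work with or degrade Kruppel-like factors had no call at the RNA level, and 7.87% of all compared genes had one. Of 10 compared cofactors (among them the SIN3, CtBP, HDAC and NCoR corepressors and the p300 and CBP coactivators) 0 were called, with a median of -0.02, and Ncor1 had a ratio of 0.913 (0.846 to 0.985). Of 6 compared ubiquitin ligases 0 were called, with a median of 0.17, and Wwp1, which targets KLF2 and KLF5, had a ratio of 1.18 (1.03 to 1.35).

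**Figure D5:**
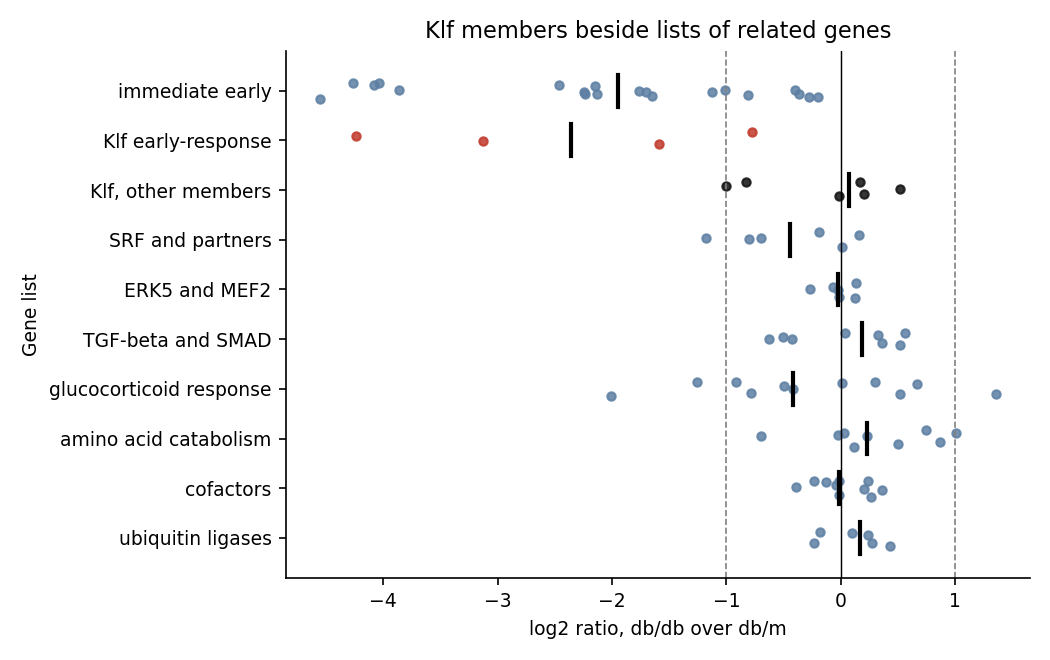
log2 ratio of db/db over db/m for each compared gene (points) of the Klf members and of 8 lists of related genes, with each list's median as a black bar and dashed lines at 2-fold. The immediate early genes (median -1.94) and the early-response Klf members (-2.36) lie to the left, and the other lists have medians between -0.44 and 0.23.

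Several cell types that could supply Klf RNA were read from markers. In bulk RNA, fewer cells of a type and less RNA per cell cannot be told apart. Although the labels say islet, 37 genes of acinar cells, which make the digestive enzymes, took 75.4% of the counts in db/db islets (75.3% to 75.4%) and 77% in db/m islets (77% to 77.1%). Of the 10 acinar markers 1 was called lower (Amy2a5), and Ctrb1, the most abundant, had a ratio of 1.02. The interval lay below 1 for 7 of the 10 and above 1 for 3, with a median log2 ratio of -0.32 and a summed ratio of 0.849 (0.848 to 0.85). The 6 beta cell markers summed to 1526 CPM in db/db islets and 1511 CPM in db/m islets, a sum carried by Ins2 (1081 CPM in db/db islets and 1029 CPM in db/m islets), and all 6 had counts in both. Of the 6 markers, 4 were called lower (Mafa at a ratio of 0.0958, Slc2a2 at 0.214, Ucn3 at 0.401 and Ins1 at 0.474) and the median log2 ratio was -1.20. The interval lay above 1 for the other 2, Iapp at 1.69 (1.61 to 1.765) and Ins2 at 1.05 (1.03 to 1.07). The alpha cell markers summed to 212 CPM in db/db islets and 58.4 CPM in db/m islets, and the delta and PP cell markers to 82.5 CPM in db/db islets and 13.3 CPM in db/m islets, and in both lists the hormone genes were higher in db/db islets (Gcg, Sst and Ppy). The 12 endothelial markers summed to 181 counts in db/db islets and 191 in db/m islets, a ratio of 0.749 (0.608 to 0.923), and 2 of 4 compared ones were called lower (Plvap and Kdr) while Pecam1 was at 1.1 (0.765 to 1.6) and Cldn5 had 0 counts in db/m islets. The 8 duct markers found had a summed ratio of 0.659 (0.621 to 0.699), a sum carried by Muc1, the most abundant, at 0.606 (0.564 to 0.65). Of the 6 compared duct markers 0 were called and 4 had a ratio below 1, while Krt19 was at 1.22 (0.99 to 1.51) and Krt7 at 1.28 (0.837 to 1.99). The 10 stellate and fibroblast markers summed to 10.3 CPM in db/db islets and 9.54 CPM in db/m islets, and they differed in direction. Of 4 compared ones 1 was called lower (Acta2), and Dcn, the most abundant, was at 0.715 (0.449 to 1.14). Col1a2 was at 1.58 (0.76 to 3.47) and Col3a1 at 1.63 (0.887 to 3.1). Below a mean of 1 CPM, Col1a1 had 30 counts in db/db islets and 5 in db/m islets. Pdgfra had 11 counts in db/db islets and 1 in db/m islets, while Rgs5 and Des had ratios below 1. The 8 macrophage markers found summed to 8.57 CPM in db/db islets and 6.14 CPM in db/m islets, with Lyz2 giving the most counts. Of the 2 compared ones 1 was called higher (Lyz2), and the other, Ptprc, was at 0.732 (0.407 to 1.31). The markers with a mean below 1 CPM differed in direction. Csf1r had 18 counts in db/db islets and 3 in db/m islets, and Cd68 had 2 counts in db/db islets and 12 in db/m islets. The 7 lymphocyte markers summed to 24 counts in db/db islets and 35 in db/m islets, with Cd3e, Cd3d and Ms4a1 at 0 in db/db islets and Cd8a at 0 in db/m islets, and the 5 adipocyte markers to 7 counts in db/db islets and 9 in db/m islets, mostly of Fabp4, with Adipoq, Cfd and Lep at 0 in both. The part of these cell types in the Klf differences was not tested.

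In all, the libraries held 18233695 counts (db/db) and 16271129 counts (db/m). Lepr, the gene of the genotype label, had 3 counts in db/db islets and 4 in db/m islets, too few to check the label. Over all compared genes 395 were called higher and 416 lower, together 7.87%. With total counts in place of TMM the split was 564 higher and 277 lower, every log2 ratio being larger by 0.18. Klf2, Klf4 and Klf6 were called lower under each of the 3 other scalings.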

How the data were processed

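The authors deposited 1 table of raw read counts, with a gene symbol, a gene class and a column for each library. HISAT2 2.0.4 and the builds mm10 and GRCm38 are named in the submitters' processing notes. Per the labels' protocols, islets were freed with collagenase and a density gradient, and ribosomal RNA was removed. The counting program, annotation, use of strand and treatment of shared reads are not stated in these sources. Counts were scaled with TMM factors (edgeR 4.0.16, R 4.3.3). Ratios carry exact 95% Clopper-Pearson intervals from the 2 counts, levels exact Poisson intervals, and pairs of genes exact conditional odds ratio intervals (Python 3.11.15, scipy 1.17.1). PCR copies are not independent molecules, so intervals and floors cover counting error only. After scaling, 1 count stood for 0.0516 CPM in db/db islets and 0.0653 CPM in db/m islets. The calling rule was tested on data simulated with counting error only, so that check cannot speak to differences between replicates. Members, sets and lists were chosen with earlier results of these data known, and the named genes are all members, the other Klf and Sp genes, and of each list the called genes (up to 6) and the most abundant one, except for an item that is not reported here. Other scalings (total counts, DESeq2 1.42.0), filters, fold limits and intervals were tried. Gene positions and upstream sequences come from RefSeq, GRCm38.p6, and transcript lengths were not used here.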

Additional observations from a re-analysis of the deposited data

How the results depend on the processing

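Klf2 and Klf6 were called lower in db/db islets under every scaling, fold limit and interval tried, and Klf4 under all of these but the 4-fold limit. With a mean of at least 10 CPM 1 member was called lower (Klf6), since Klf2, Klf4 and Klf5 have lower means and were not compared, and with the 4-fold limit 2 were (Klf2 and Klf6). With a 1.5-fold limit 6 were, with Klf3 and Klf10 added. Klf5 was called lower only with TMM or DESeq2 scaling, no filter or at least 1 CPM, limits up to 2-fold and the 95% interval taken against 1. No member was called higher under any of these alternatives. Over all genes, the counts of higher and lower calls were 745 and 814 with no filter, 36 and 95 with at least 10 CPM, 889 and 914 at 1.5-fold, 78 and 76 at 4-fold, 138 and 213 with intervals at the Bonferroni level, and 99 and 137 with the whole interval beyond 2-fold. With total counts 277 were lower. The median log2 ratio of the early-response members was -1.59 with Klf5 among them, and that of the other members was 0.25 with total counts. Set against the other members, the summed early-response counts were 6.91-fold lower, and 3.2-fold lower without Klf6 and Klf15, an alternative chosen after seeing the data. Of 30 member log2 ratios under other scalings, 2 changed sign, both of Klf13, and 2 left their main counting interval (Klf6 and Klf15 with total counts). No paired analysis was possible because each group has 1 library. Leaving out a replicate was not possible for the same reason. Depth limits the members with few counts, among them Klf2 with 15 counts in db/db islets and Klf3, Klf5 and Klf7 with fewer than 100 in each library.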

Other observations

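Of 8 genes listed as targets of KLF2 or KLF4 in endothelial cells and T cells, 0 reached 1 CPM, and their summed counts were 66 in db/db islets and 36 in db/m islets, a ratio of 1.45 (0.951 to 2.24). S1pr1, a sphingosine-1-phosphate receptor that KLF2 keeps on in T cells, was the most abundant, with 19 counts in db/db islets and 7 in db/m islets.

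In RefSeq, 12 annotated genes overlap a Klf member or lie within 5 kb of one, 4 of them are in the count table and 2 had a count. Mir1192, a microRNA gene inside Klf9 (chromosome 19, 23149431 to 23149551), had 19 counts in db/db islets and 6 in db/m islets. E030018B13Rik, inside Klf13, had 3 counts in db/db islets and 0 in db/m islets. Whether counting used strand is not stated in these sources, and reads of overlapping genes cannot be told apart.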
